A study of Mus musculus with 18 samples.

Results

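The comparison described here is that of SIRT6 KD with WT 3T3-L1 cells at 20 hr after the induction of adipogenesis, during mitotic clonal expansion. It was chosen by the array titles, which put 3 arrays in each of these 2 groups, so 6 of the 18 arrays of the series belong to it, and 22180 genes were compared. 3T3-L1 is a mouse preadipocyte line that becomes fat cells after hormonal induction. Per the study's methods, SIRT6 KD cells carried a short hairpin RNA against Sirt6, delivered by lentivirus, and WT cells are the cells set against them. Both groups had been kept for 20 hr in IBMX, dexamethasone and insulin, so the drugs are shared. In its BrdU assay the study set SIRT6 KD cells against cells given a control hairpin. The sources do not say whether the WT arrays came from such cells or from cells given no virus. Infection may thus differ between the groups as well as the hairpin. By the array titles all WT arrays are numbered before all SIRT6 KD arrays, so genotype also runs with that order. The other 12 arrays are of the same 2 kinds of cell before induction (0 hr) and at 40 hr, again 3 of each. Their values do not enter the fold changes at 20 hr, but their spread enters the p-values, since 1 model was fitted to all 18 arrays. The labels themselves speak of mice and an inhibitor and give the times without a unit, so the cells, the hairpin and the hours are taken from the study. The study states that its cell culture work used biological replicates. The labels do not say whether the 3 arrays of a group came from separate cultures or separate infections, so the p-values measure the spread between these arrays.

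SIRT6 is a nuclear NAD+-dependent deacetylase that removes acetyl groups from histones at promoters and is known for roles in genome stability and in glucose and lipid metabolism. In 3T3-L1 cells the inducing drugs act through cAMP, the glucocorticoid receptor and the insulin and IGF receptors. They first drive growth-arrested preadipocytes back into the cell cycle for a few synchronous divisions, called mitotic clonal expansion, during which C/EBPβ and C/EBPδ prepare the later induction of PPARγ and C/EBPα, the regulators of the fat cell program. Entry into S phase needs cyclin E and cyclin A with CDK2 and the loss of the CDK inhibitor p27, encoded by Cdkn1b.

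Values are log2 signals made by RMA, so a difference of 1 is a doubling, and levels of different genes are not compared with each other. A gene is given by its brightest row. As a guide to what is too dim to read, the 1405 rows of olfactory and vomeronasal receptors, which preadipocytes are not known to use, had their 95th percentile at 6.55 on the 20 hr arrays. This value is called the receptor level below, and 11767 genes lay above it. A call means an adjusted p under 0.05 in limma, by Benjamini and Hochberg over the 23521 rows with 1 gene symbol. Groups of arrays are said not to overlap when all 3 arrays of one group lie above all 3 of the other.

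The hairpin's target came first. Sirt6 had signals of 6.73, 6.98 and 6.97 in the SIRT6 KD arrays, against 6.96, 7.34 and 7.28 in the WT arrays. Replicates 2 and 3 of SIRT6 KD thus lay just above the lowest WT array, and the groups overlapped. The log2 fold change was -0.30 (SE 0.11, limma adjusted p = 0.617, exact permutation p = 0.3). Its signal stood close to the receptor level. The study followed SIRT6 protein in its knockdown cells by western blot, and protein is not measured by these arrays. The log2 fold change of Sirt6 was -0.18 at 0 hr and -0.22 at 40 hr.

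The difference between the 2 kinds of cell at 20 hr came down to few genes, and none reached 2-fold. Kif5c, which encodes a heavy chain of the microtubule motor kinesin-1, rose. Anpep, the cell-surface aminopeptidase N (CD13), Pskh1, a serine/threonine kinase, and Zfp862-ps, a transcribed zinc finger pseudogene, fell. These 4 genes were all that were called, 0.018% of 22180 (0.00451% higher and 0.0135% lower), and the rows called were 5, 0.0213% of 23521 (0.00425% higher and 0.017% lower). The 5th row was the dimmer of the 2 rows of Rap1b, a small GTPase of the Ras family that acts on integrins. At an unadjusted p under 0.05 there were 677 genes higher (3.05%) and 781 lower (3.52%), together 6.57% of all genes. The calls rest on all 6 arrays and on the spread of the other 12. With only the 6 arrays at 20 hr fitted 0 rows were called, and with arrays centred on their medians 0. Without any one array the adjusted p of Kif5c was 0.0555 to 0.24 and that of Zfp862-ps 0.0809 to 0.24, while Anpep and Pskh1 stayed called only without SIRT6 KD replicate 2 (0.0331 each). Their log2 fold changes stayed within 0.58 to 0.71 for Kif5c and -0.64 to -0.52 for Anpep.

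The promoters of the called genes are shown because SIRT6 acts on chromatin at promoters and because the inducing mixture raises cAMP. They are the RefSeq windows of GRCm38.p6, from 250 bases before to 50 bases after the start of the gene, with Rap1b added for its dimmer row and Zfp862-ps named only. The stretch of the Kif5c promoter to which the study found SIRT6 recruited lies further upstream, outside the window shown. Capitals mark the GC box GGGCGG, the CCAAT box CCAAT and the cAMP response element TGACGTCA, each searched on both strands, with none overlapping another here.
Kif5c promoter, chr2:49619036-49619335, plus strand: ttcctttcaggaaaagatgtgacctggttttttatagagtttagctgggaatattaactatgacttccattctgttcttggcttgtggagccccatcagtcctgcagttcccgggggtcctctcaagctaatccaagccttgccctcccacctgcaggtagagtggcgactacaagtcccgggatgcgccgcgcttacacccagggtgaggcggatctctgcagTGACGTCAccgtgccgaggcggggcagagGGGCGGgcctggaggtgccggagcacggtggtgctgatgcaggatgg
Anpep promoter, chr7:79848161-79848460, minus strand: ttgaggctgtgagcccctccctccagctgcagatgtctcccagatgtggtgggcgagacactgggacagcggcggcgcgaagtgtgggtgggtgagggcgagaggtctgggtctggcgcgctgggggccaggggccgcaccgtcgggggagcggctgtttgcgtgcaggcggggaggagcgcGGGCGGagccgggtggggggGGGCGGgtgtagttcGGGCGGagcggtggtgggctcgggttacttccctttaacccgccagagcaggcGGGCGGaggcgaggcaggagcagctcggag
Pskh1 promoter, chr8:105900224-105900523, plus strand: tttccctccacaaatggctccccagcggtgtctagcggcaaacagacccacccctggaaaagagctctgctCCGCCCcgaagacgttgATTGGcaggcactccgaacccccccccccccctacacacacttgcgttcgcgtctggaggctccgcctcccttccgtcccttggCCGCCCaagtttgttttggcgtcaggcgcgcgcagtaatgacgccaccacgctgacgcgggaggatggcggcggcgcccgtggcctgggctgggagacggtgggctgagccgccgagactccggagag
Rap1b promoter, chr10:117845925-117846224, minus strand: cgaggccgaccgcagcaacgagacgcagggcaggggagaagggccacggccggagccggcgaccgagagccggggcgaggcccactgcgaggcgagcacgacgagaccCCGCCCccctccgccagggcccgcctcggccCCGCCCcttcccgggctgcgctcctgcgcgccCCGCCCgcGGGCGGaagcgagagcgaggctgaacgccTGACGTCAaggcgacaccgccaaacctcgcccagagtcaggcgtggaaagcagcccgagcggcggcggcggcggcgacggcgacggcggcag

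The GC box occurred 1 time in the Kif5c window, 4 times in that of Anpep, 2 times in that of Pskh1 and 4 times in that of Rap1b, and 35.7% of 32851 promoter windows of the same length hold it. The full cAMP response element stood in the windows of Kif5c and Rap1b, a gene that was higher and one that was lower, and in 1.8% of all windows. Only the Pskh1 window held the CCAAT box, which 37.4% of all windows hold. The windows of Anpep, Pskh1 and Rap1b were 72.3%, 67.0% and 78.0% G and C, and that of Kif5c 58.0%, against a median of 52.7% over all windows. Over genes above the receptor level, to which these genes belong, the median was 60.7%, so Kif5c lay below it. The shares of windows with each motif were not worked out for that class. These matches describe the letters of the windows and say nothing of binding.

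Kif5c had signals of 7.47, 7.37 and 7.41 in the SIRT6 KD arrays, against 6.89, 6.79 and 6.64 in the WT arrays. The lowest SIRT6 KD array lay well above the highest WT array. The WT signal of Kif5c, like the signal of Sirt6, stood close to the receptor level of 6.55. The mean of Kif5c at 20 hr was 6.77 in the WT arrays and 7.42 in the SIRT6 KD arrays. The log2 fold change was 0.65 (SE 0.097, limma adjusted p = 0.0228), a fold of 1.57 with a 95% interval of 0.44 to 0.85 on the log2 scale. Before induction the signals were 7.51, 7.71 and 7.79 in SIRT6 KD arrays, against 7.53, 7.20 and 7.50 in WT arrays, so the groups overlapped. Kif5c stood lower at 20 hr than at 0 hr in both kinds of cell, with a log2 difference of -0.25 with SIRT6 KD and -0.64 in WT cells. At 40 hr they were 7.33, 7.29 and 7.36 in SIRT6 KD arrays, against 6.71, 6.77 and 6.59 in WT arrays, a log2 difference of 0.64.

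Anpep had signals of 8.64, 8.88 and 8.68 in SIRT6 KD arrays, against 9.27, 9.25 and 9.37 in WT arrays (log2 fold change -0.56, SE 0.087, limma adjusted p = 0.0228). All 3 SIRT6 KD arrays were lower than every WT array, as they were at the other times. At 0 hr Anpep read 9.13, 9.10 and 9.12 in SIRT6 KD arrays, against 9.28, 9.38 and 9.38 in WT arrays. At 40 hr it read 8.93, 8.63 and 8.91 in SIRT6 KD arrays, against 9.31, 9.45 and 9.4 in WT arrays. The WT signal hardly moved from 0 hr to 20 hr, with a log2 difference of -0.05, and that of SIRT6 KD cells differed by -0.38. Anpep has a neighbour in function in Mme, the membrane metalloendopeptidase neprilysin (CD10), whose signals were 5.38, 5.19 and 5.41 in SIRT6 KD arrays and 5.93, 5.90 and 5.70 in WT arrays. Mme lay below the receptor level and was not called (log2 fold change -0.52, limma adjusted p = 0.194).

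Pskh1 had signals of 8.03, 8.33 and 8.22 in SIRT6 KD arrays, against 8.78, 8.70 and 8.77 in WT arrays, with a log2 fold change of -0.56 (SE 0.086, limma adjusted p = 0.0228). Its SIRT6 KD arrays spread more (SD 0.15, n = 3) than its WT arrays (SD 0.042, n = 3), and the groups stayed apart. Zfp862-ps had 7.96, 8.02 and 8.09 in SIRT6 KD arrays and 8.47, 8.47 and 8.52 in WT arrays, a log2 fold change of -0.46 (SE 0.071, limma adjusted p = 0.0228). At 40 hr its difference was -0.73, and there too the groups did not overlap.

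Rap1b is a case where the choice of row decided the call. Its brightest row read 11.59, 11.57 and 11.57 in SIRT6 KD arrays, against 12, 11.96 and 11.96 in WT arrays, a log2 fold change of -0.40 (SE 0.069, limma adjusted p = 0.0543). Its other row read 11.37, 11.38 and 11.33 in SIRT6 KD arrays, against 11.76, 11.84 and 11.80 in WT arrays, a log2 fold change of -0.44 (limma adjusted p = 0.0274). Both rows gave a difference of about the same size, and in both the arrays were apart. Of 16 measured Rap and Ras GTPases and their regulators, 8 lay above 0 and 8 below, with a median log2 fold change of 0.011 and 0 called, beside a median of -0.0076 over all genes. Rap2a, a relative of Rap1b, had a log2 fold change of 0.18 (limma adjusted p = 0.794), and Rapgef1, an exchange factor that activates Rap1, one of -0.19 (limma adjusted p = 0.793).

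Next in order of p came Cryab, a small heat shock protein, and Cluh, an RNA-binding protein of mitochondrial messages, both with a limma adjusted p of 0.0543. Cryab had signals of 8.19, 8.35 and 8.35 in SIRT6 KD arrays, against 7.85, 7.82 and 7.71 in WT arrays, a log2 fold change of 0.50. From 0 hr to 20 hr it differed in both kinds of cell by far more than the groups did, at -3.11 for SIRT6 KD cells and -3.50 for WT cells on the log2 scale. Cluh had 8.58, 8.69 and 8.64 in SIRT6 KD arrays, against 9.02, 9.10 and 9.21 in WT arrays, a log2 fold change of -0.47. In neither gene did the arrays of the 2 groups overlap.

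**Figure D1:**
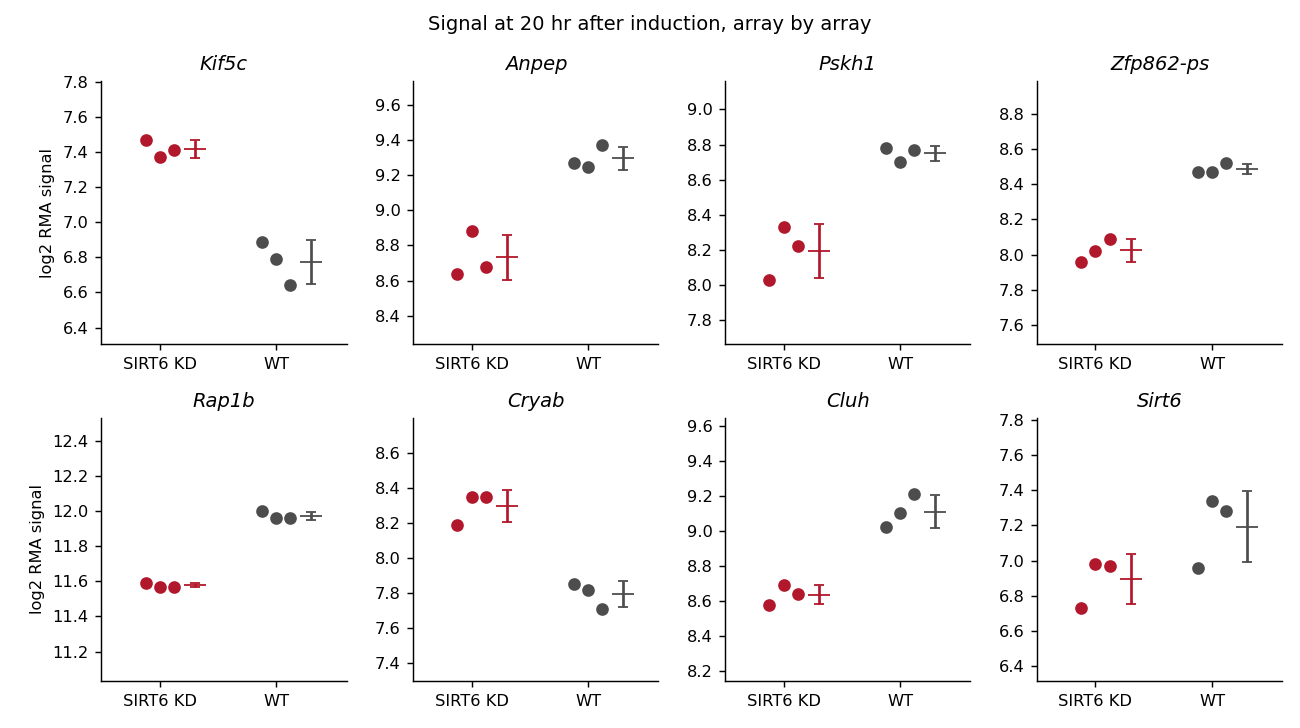
Log2 RMA signal of 8 genes at 20 hr, with each point 1 array and the bar beside them the mean ± SD of the 3 arrays, SIRT6 KD on the left of each panel and WT on the right. Every panel spans the same 1.5 log2 units from its own start, so the gaps can be compared, and only Sirt6 has arrays of the 2 groups at overlapping levels.

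Across all genes the differences at 20 hr were small. The median absolute log2 fold change was 0.076, and 95.9% of genes lay within a fold of 1.2 in either direction. Only 15 genes passed a fold of 1.5, of which 5 lay above the receptor level, and the fold changes ran from -0.79 to 0.82. The study sets its thresholds at a 1.5-fold change and p under 0.05 without adjustment, and 15 rows met both (0.0638%), 11 higher (0.0468%) and 4 lower (0.017%). The groups did not overlap in 11.7% of genes, 5.41% with SIRT6 KD higher and 6.26% with SIRT6 KD lower. Above the receptor level these shares were 4.65% and 7.57%. The fold change was above 0 in 47.2% of all genes and in 42.4% of those above the receptor level.

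The SIRT6 KD arrays were less alike than the WT arrays. Correlations between arrays ran from 0.9905 to 0.9932 within SIRT6 KD and from 0.995 to 0.9954 within WT, and those between the groups, 0.9923 to 0.9943, lay above the lowest within SIRT6 KD. The median SD of a gene was 0.124 over the 3 SIRT6 KD arrays and 0.091 over the 3 WT arrays. SIRT6 KD replicate 1 received the lowest weight of all 18 arrays, 0.546, when arrays were weighted by their fit. Markers of fibroblasts and preadipocytes were high in all 6 arrays (10 of 11 above the receptor level, mean signal 9.84 to 9.91 in SIRT6 KD and 9.82 to 9.87 in WT). All 8 endothelial markers lay below the receptor level, as did 6 of 8 macrophage markers, among them Ptprc at 5.24 in both groups. Other marker lists did not stay below it. Above it lay 6 of 8 neuronal, 5 of 8 muscle, 3 of 8 epithelial and 3 of 7 adipocyte markers. The receptor level thus does not separate cell types.

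**Figure D2:**
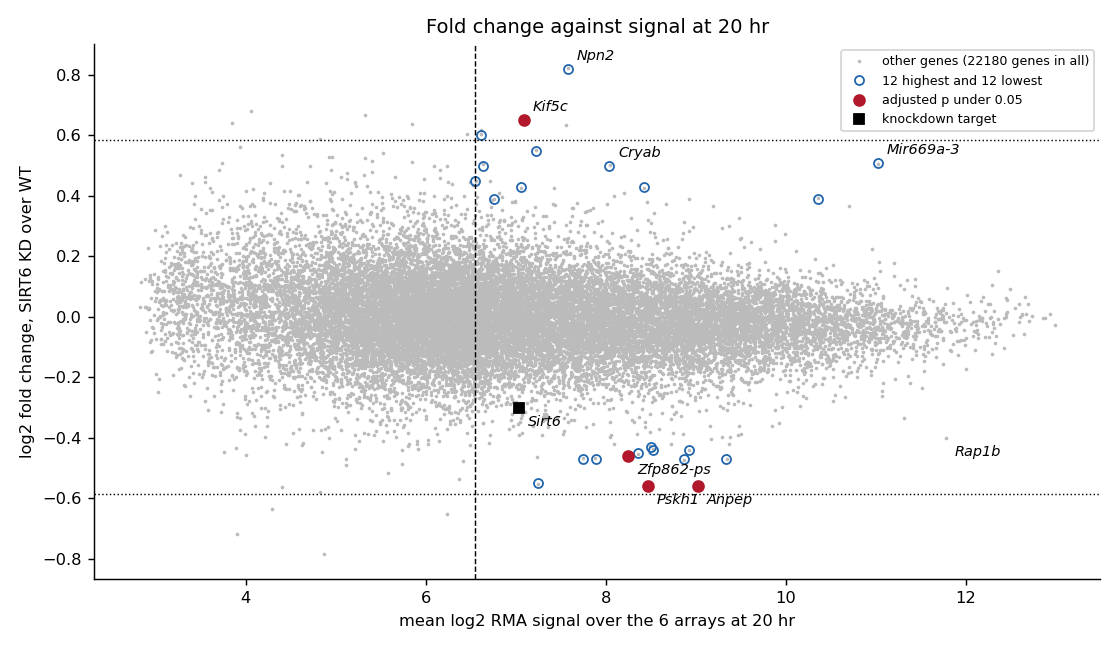
Log2 fold change at 20 hr, SIRT6 KD over WT, of 22180 genes against their mean signal over the 6 arrays, with the dashed line at the receptor level and the dotted lines at a fold of 1.5. Filled red points are the 4 called genes, open blue points the 12 highest and 12 lowest named below, and the square is Sirt6 at -0.30.

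The 12 genes with the highest fold changes among those at an unadjusted p under 0.01, above the receptor level and with arrays apart included Kif5c and Cryab. Their fold changes describe the rule that picked them. Anxa3, an annexin, had a log2 fold change of 0.43 and C1s1, a serine protease of the complement C1 complex, one of 0.43. Il13ra2, a decoy receptor for interleukin-13, had 0.50 and Akr1b10, an aldo-keto reductase, 0.39. The limma adjusted p of these 4 genes ran between 0.227 and 0.512, and none was called. Npn2 had the largest fold change of all genes, 0.82, with signals of 8.32, 7.73 and 7.91 in SIRT6 KD arrays, against 7.71, 7.31 and 6.48 in WT arrays. Its arrays spread over more than 1 log2 unit in WT cells, and its adjusted p was 0.419. The others were Triqk, 1110032F04Rik (whose dimmer row had a log2 fold change of 0.03), Gm10791 and the microRNA genes Mir669a-3 and Mir466h, whose copies are near-identical, so that their probes can be shared.

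The 12 lowest included Anpep, Pskh1, Zfp862-ps and Cluh. Cd151, a tetraspanin that binds integrins, had signals of 8.63, 8.84 and 8.64 in SIRT6 KD arrays, against 9.02, 9.25 and 9.15 in WT arrays (log2 fold change -0.44, limma adjusted p = 0.147). Golga7, a Golgi protein that partners a palmitoyltransferase of Ras proteins, had 9.25, 8.98 and 9.10 in SIRT6 KD arrays, against 9.53, 9.57 and 9.62 in WT arrays (log2 fold change -0.47, limma adjusted p = 0.115). Entpd5, an ER nucleotide phosphatase, stood at -0.47, Mpi, the mannose phosphate isomerase that feeds glycosylation, at -0.43 and Cndp2, a cytosolic dipeptidase, at -0.55 on the log2 scale. Sesn1, a stress-responsive p53 target that restrains mTORC1, had -0.45 and Mfsd10, a membrane transporter, -0.44. The remaining member was n-R5s136, a 5S ribosomal RNA gene, at -0.47 (limma adjusted p = 0.545). Of these 12, only Anpep, Pskh1 and Zfp862-ps were called.

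Several transcripts singled out by the study at 20 hr were dim. They were chosen on these arrays, so their values are given with no test. Enpp2, the entry with the smallest p on the study's 20 hr list, is lower there and is given no value here. Trim30d, an interferon-stimulated member of the TRIM family, had signals of 6.97, 6.65 and 6.67 in SIRT6 KD arrays, against 6.42, 5.99 and 6.07 in WT arrays (log2 fold change 0.61). Its groups did not overlap, and its mean over the 6 arrays lay below the receptor level. At 40 hr its difference was 0.65 and at 0 hr 0.03. Trim30a, its close relative, had 6.46, 6.5 and 6.42 in SIRT6 KD arrays, against 6.26, 6.05 and 5.97 in WT arrays (log2 fold change 0.36, limma adjusted p = 0.521). The microRNA gene Mir130b had 5.05, 4.85 and 5.46 in SIRT6 KD arrays, against 4.56, 4.37 and 4.67 in WT arrays, a log2 fold change of 0.59, and it too lay below the receptor level. Its mature forms are shown because the miR-130 family is known to repress PPARγ, with the seed, bases 2 to 8, in capitals, as RefSeq gives them on GRCm38.p6.
mmu-miR-130b-3p: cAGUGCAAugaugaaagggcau
mmu-miR-130b-5p: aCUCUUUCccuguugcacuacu
An array of this kind reads the gene and its precursor and does not tell the mature arms apart. The receptor genes Vmn1r80 and Olfr441, at log2 fold changes of -0.79 and -0.72, and Vmn2r26, at 0.67, were also below the receptor level. Nnat, the proteolipid neuronatin, had 2 rows that differed. Its brightest row had a log2 fold change of -0.03. Its other row lay below the receptor level at 6.45, 6.15 and 5.79 in SIRT6 KD arrays, against 5.81, 5.08 and 5.57 in WT arrays, a log2 fold change of 0.65.

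The kinesin-1 and CK2 genes were compared because KIF5C and the kinase CK2 are followed in the study. Of 8 measured genes 1 was called, Kif5c, around which the list was built (0.018% of all genes were called), and 4 lay above 0 and 4 below, with a median log2 fold change of -0.003. Kif5b, the ubiquitous kinesin-1 heavy chain, had 10.09, 9.93 and 9.85 in SIRT6 KD arrays, against 10.11, 10.07 and 10.04 in WT arrays (log2 fold change -0.12, 95% interval -0.30 to 0.06). Kif5a, a neuronal heavy chain, had a log2 fold change of 0.06 (95% interval -0.22 to 0.34) at a signal below the receptor level. Klc3, a kinesin light chain, had -0.26 (limma adjusted p = 0.672). The catalytic subunits of CK2, Csnk2a1 and Csnk2a2, had log2 fold changes of 0.10 (95% interval -0.08 to 0.27) and -0.07 (-0.24 to 0.10).

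Cell cycle genes, the subject of clonal expansion, had strongly different signals after induction in both kinds of cell and differed little between them at 20 hr. The 41 measured genes of DNA replication and G1/S stood a median of 0.85 higher at 20 hr than at 0 hr with SIRT6 KD and 0.92 higher in WT cells, on the log2 scale. The 43 genes of G2/M and mitosis stood 1.19 higher in SIRT6 KD cells and 1.22 higher in WT cells. Between the 2 kinds of cell at 20 hr, 0 of these 84 genes were called by limma and 0 reached an unadjusted p under 0.05, where 6.57% of all genes did. The replication genes split into 17 above 0 and 24 below, with a median of -0.018 and a range of -0.15 to 0.17. The mitotic genes split into 27 above and 16 below, with a median of 0.022 and a range of -0.11 to 0.15. The arrays were apart in 2 of the 41 and in 1 of the 43, shares of 4.88% and 2.33% beside 11.7% of all genes. At 40 hr 36 of the 41 replication genes and 36 of the 43 mitotic genes lay below 0, with medians of -0.141 and -0.082. At 0 hr the medians were 0.064 and 0.017. The shift of these lists between times was not tested.

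With the arrays rescaled by cyclic loess the median of the replication genes was 0.001 and that of the mitotic genes stayed above 0. Without SIRT6 KD replicate 1 the replication genes split into 27 above 0 and 14 below, and without replicate 2 into 9 above and 32 below. For every one of the 84 the 95% interval lay within a fold of 1.5 in either direction, as it did for 96.8% of all genes, and the intervals ran from -0.39 to 0.40. The bound covers differences in messenger level per array and leaves smaller differences undecided. Ccna2, cyclin A2, had 10.58, 10.50 and 10.39 in SIRT6 KD arrays, against 10.55, 10.35 and 10.41 in WT arrays (log2 fold change 0.05, 95% interval -0.14 to 0.25). Cdk1, the mitotic kinase, had 9.78, 9.93 and 10.08 in SIRT6 KD arrays, against 9.98, 10.04 and 9.79 in WT arrays, with an interval of -0.24 to 0.23. Ccne1, cyclin E1, had a log2 fold change of -0.01 (95% interval -0.19 to 0.17), and Cdk2 one of -0.04 (-0.21 to 0.14). E2f1, an S-phase transcription factor, had -0.12 (-0.34 to 0.11). In these 5 genes the arrays of the groups overlapped.

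Of 25 G1 and S cyclins, CDKs and E2Fs, 10 lay above 0 and 15 below (median -0.019), and 1 reached an unadjusted p under 0.05. It was Myc, a growth-promoting transcription factor, with 8.96, 9.0 and 8.94 in SIRT6 KD arrays, against 9.06, 9.15 and 9.19 in WT arrays (log2 fold change -0.16, limma adjusted p = 0.739). Ccnd1, cyclin D1, had -0.12 (95% interval -0.32 to 0.07). At 40 hr 22 of these 25 genes lay below 0, with a median of -0.114. Of 15 CDK inhibitors and genes of p27 turnover, 7 lay above 0 and 8 below (median -0.002), with 0 called and 0 at an unadjusted p under 0.05. Cdkn1b, which encodes p27, had 9.04, 9.07 and 8.94 in SIRT6 KD arrays, against 9.21, 9.08 and 9.12 in WT arrays (log2 fold change -0.12, 95% interval -0.29 to 0.05). Its SIRT6 KD arrays all lay below its WT arrays, the nearest by 0.01. Skp2, which marks p27 for degradation, had 0.09 (-0.10 to 0.27), and Cdkn1a, which encodes p21, 0.09 (-0.16 to 0.33). RNA says nothing of the stability or phosphorylation of p27.

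**Figure D3:**
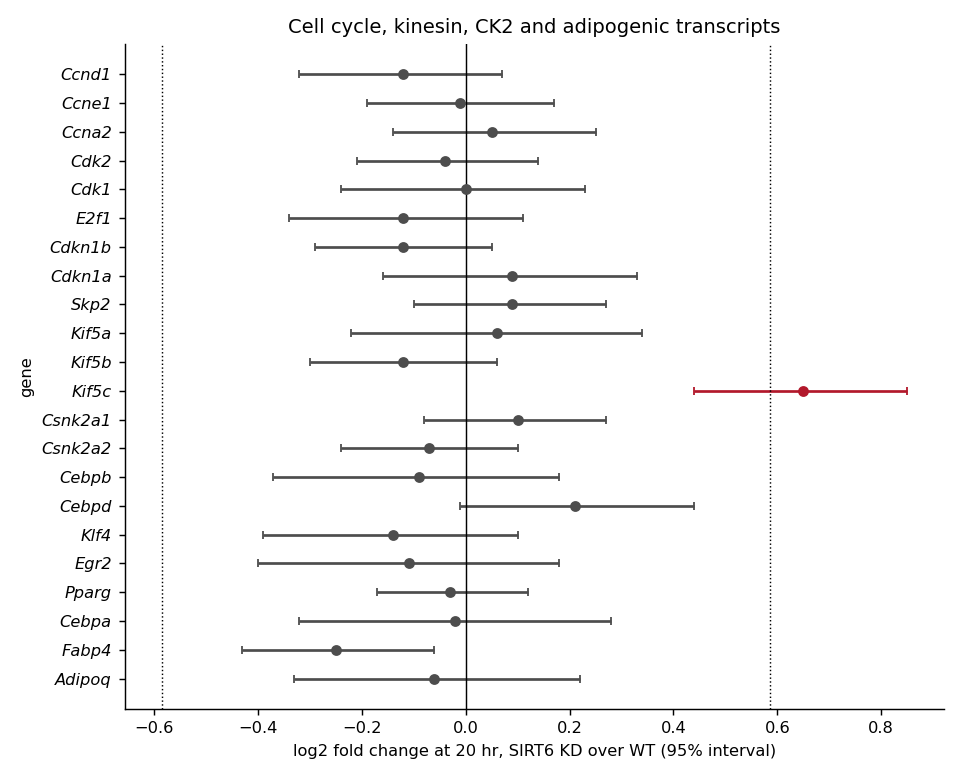
Log2 fold change at 20 hr, SIRT6 KD over WT, of 22 cell cycle, kinesin, CK2 and adipogenic transcripts, with 95% intervals from limma (3 arrays a group) and dotted lines at a fold of 1.5. Kif5c (red) at 0.65 was the one called gene, and the intervals of all the others lie inside the dotted lines.

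Histone genes tied to replication, whose messages are made in S phase, had 14 measured members. Of these, 4 lay above 0 and 10 below, with a median of -0.126 and 0 called. Only 9 of the 14 lay above the receptor level, 0 of them above 0 and 9 below, with a median of -0.171. Among all genes above that level 57.6% lay below 0. H1f5, a linker histone, had 8.48, 8.91 and 8.46 in SIRT6 KD arrays, against 8.95, 8.94 and 8.91 in WT arrays (log2 fold change -0.31, limma adjusted p = 0.814). Its replicate 2 lay within the reach of the WT arrays while the other SIRT6 KD arrays lay lower. Only 10 of the 14 had an interval within a fold of 1.5, so this list was measured less precisely than the other cell cycle lists, and its members are near-identical copies that the array may not tell apart.

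The early adipogenic factors were examined because they act between the inducing drugs and PPARγ. Of 31 measured genes 9 lay above 0 and 22 below, with a median log2 fold change of -0.094 and 0 called, beside 52.8% of all genes below 0. Without SIRT6 KD replicate 1 the split was 15 above and 16 below, with a median of -0.006, so the lean rests on that array. Cebpb, which encodes C/EBPβ, had 7.32, 7.77 and 7.56 in SIRT6 KD arrays, against 7.81, 7.32 and 7.81 in WT arrays (log2 fold change -0.09, 95% interval -0.37 to 0.18). Cebpd, which encodes C/EBPδ, had 7.94, 7.95 and 8.23 in SIRT6 KD arrays, against 7.92, 7.91 and 7.65 in WT arrays (log2 fold change 0.21, limma adjusted p = 0.762). C/EBPβ and C/EBPδ messages thus lay on different sides of 0. Klf4 and Egr2, which encode early transcription factors upstream of C/EBPβ, had -0.14 (95% interval -0.39 to 0.10) and -0.11 (-0.40 to 0.18). Rxra, the partner of PPARγ, had 9.04, 9.16 and 9.17 in SIRT6 KD arrays, against 9.26, 9.38 and 9.41 in WT arrays (log2 fold change -0.23, limma adjusted p = 0.614).

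Pparg itself had 9.55, 9.56 and 9.41 in SIRT6 KD arrays, against 9.52, 9.53 and 9.54 in WT arrays, and its interval, -0.17 to 0.12, was among the narrower ones. Cebpa had a log2 fold change of -0.02 (95% interval -0.32 to 0.28). Of 29 measured adipocyte genes 8 lay above 0 and 21 below (median -0.057), with 0 called. Fabp4, the fatty acid binding protein of fat cells, had 10.92, 11 and 10.92 in SIRT6 KD arrays, against 11.21, 11.12 and 11.25 in WT arrays (log2 fold change -0.25, limma adjusted p = 0.604). Cd36, a fatty acid transporter, had 7.52, 7.48 and 7.33 in SIRT6 KD arrays, against 7.67, 7.94 and 7.75 in WT arrays (log2 fold change -0.34, limma adjusted p = 0.534). In both genes the SIRT6 KD arrays all lay below the WT arrays. Adipoq, adiponectin, was still below the receptor level in both groups. Of 27 measured preadipocyte factors that restrain adipogenesis, 12 lay above 0 and 15 below (median -0.034).

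Targets of the inducing drugs leaned lower in SIRT6 KD cells. Of 31 measured genes that glucocorticoids and cAMP induce, 5 lay above 0 and 26 below, with a median of -0.11 and 0 called, where 52.8% of all genes and 57.6% of genes above the receptor level were below 0. The list as a whole stood 0.67 higher at 20 hr than at 0 hr in SIRT6 KD cells and 0.68 higher in WT cells (medians on the log2 scale). Nr4a1, an immediate early nuclear receptor, had 9.16, 9.42 and 9.41 in SIRT6 KD arrays, against 9.57, 9.70 and 9.56 in WT arrays (log2 fold change -0.28, limma adjusted p = 0.538). Per1, a clock gene that glucocorticoids induce, had 8.74, 8.94 and 8.81 in SIRT6 KD arrays, against 9.0, 9.01 and 9.0 in WT arrays (log2 fold change -0.17, limma adjusted p = 0.662). Ppargc1a, the coactivator PGC-1α, had the lowest fold change of the list, -0.48 (limma adjusted p = 0.295), below the receptor level. At 0 hr, before the drugs, the list's median was -0.033, and at 40 hr -0.036. Of 20 measured phosphodiesterases, the enzymes that IBMX inhibits, 8 lay above 0 and 12 below (median -0.04), and Pde7b had a log2 fold change of -0.34 (limma adjusted p = 0.673).

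Interferon-stimulated genes leaned the other way. Of 35 measured genes 25 lay above 0 and 10 below, with a median of 0.12, the highest of the 35 pathway lists, and 0 called. Without SIRT6 KD replicate 2 the median was 0.075, and without replicate 3 it was 0.078. At an unadjusted p under 0.05 there were 8 higher and 1 lower, beside 3.05% and 3.52% of all genes, and the arrays were apart in 5, all with SIRT6 KD higher, 14.3% of the list beside 11.7% of all genes. The members with the smallest p were Trim30d and Trim30a, given above, Psmb9, an immunoproteasome subunit, and Trim21, an antibody receptor. The means of Trim30d and Trim30a lay below the receptor level, and the study had singled out Trim30d on these same arrays. Psmb9 had 7.13, 7.27 and 7.26 in SIRT6 KD arrays, against 6.86, 7.01 and 7.0 in WT arrays (log2 fold change 0.26, limma adjusted p = 0.545). Trim21 had 7.19, 7.68 and 7.65 in SIRT6 KD arrays, against 7.11, 7.30 and 7.10 in WT arrays (log2 fold change 0.33, limma adjusted p = 0.566). Only 18 of the 35 lay above the receptor level, 12 of them above 0 and 6 below, with a median of 0.072. The list's median was 0.027 at 0 hr and 0.032 at 40 hr. Chemokines, cytokines and NF-κB genes had 16 above 0 and 13 below (median 0.052, but -0.002 without SIRT6 KD replicate 2), with Cx3cl1, the chemokine fractalkine, at 8.29, 8.30 and 8.30 in SIRT6 KD arrays, against 8.69, 8.57 and 8.77 in WT arrays (log2 fold change -0.38, limma adjusted p = 0.194).

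Of 18 measured genes of the actin contractile apparatus, 10 lay above 0 and 8 below (median 0.039, but -0.007 without SIRT6 KD replicate 2), and 0 were called. The arrays were apart in 4 (22.2%), all with SIRT6 KD higher, where 5.41% of all genes were. Acta2, smooth muscle actin, had 10.81, 10.91 and 10.95 in SIRT6 KD arrays, against 10.53, 10.46 and 10.59 in WT arrays (log2 fold change 0.37, limma adjusted p = 0.194). Myl9, a myosin light chain, had 7.68, 7.81 and 7.91 in SIRT6 KD arrays, against 7.52, 7.37 and 7.49 in WT arrays (log2 fold change 0.33, limma adjusted p = 0.474). Cnn1, calponin, had 6.5, 6.82 and 6.59 in SIRT6 KD arrays, against 6.21, 6.23 and 6.39 in WT arrays (0.36, limma adjusted p = 0.419), and Tpm1, a tropomyosin, had a log2 fold change of 0.21. The mean of Cnn1 over these arrays lay below the receptor level. At 0 hr its arrays were apart the other way, with a log2 fold change of -0.29. Acta2, Myl9 and Tpm1 stood far lower at 20 hr than at 0 hr in both kinds of cell, Acta2 at -1.94 for SIRT6 KD cells and -2.24 for WT cells on the log2 scale. Induction is known to dissolve the stress fibres of preadipocytes.

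**Figure D4:**
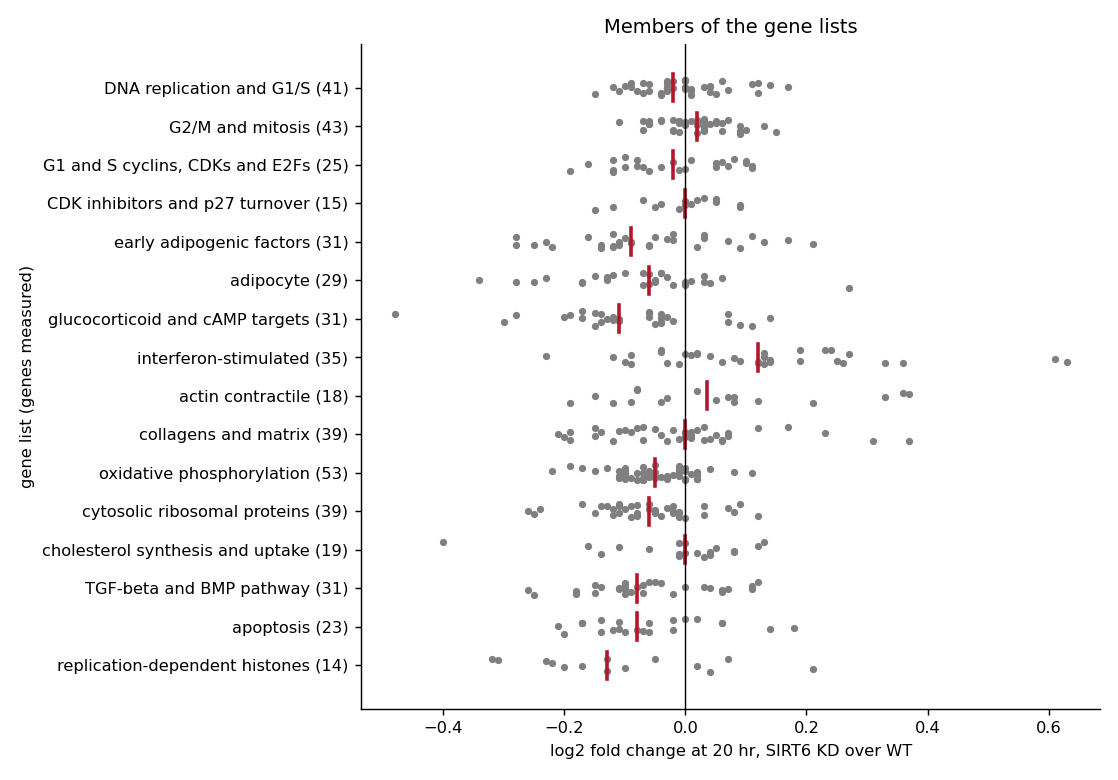
Log2 fold change at 20 hr, SIRT6 KD over WT, of each measured member (grey points) of 16 gene lists, with the list's median as a red bar and the number of members in brackets. The lists of replication, mitosis, cyclins and CDK inhibitors have medians between -0.019 and 0.022, the replication-dependent histones one of -0.126, and the interferon-stimulated list has its median at 0.12.

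Of 39 measured collagens and matrix genes 18 lay above 0 and 21 below (median -0.004), with arrays apart in 1 higher and 7 lower, beside 5.41% and 6.26% of all genes. Col4a2, a basement membrane collagen that was higher at 20 hr than at 0 hr in both kinds of cell, had 8.54, 8.79 and 8.70 in SIRT6 KD arrays, against 8.82, 8.96 and 8.83 in WT arrays (log2 fold change -0.20, limma adjusted p = 0.692). Fmod, the proteoglycan fibromodulin, had 7.30, 7.31 and 7.56 in SIRT6 KD arrays, against 7.10, 7.12 and 7.01 in WT arrays (log2 fold change 0.31, limma adjusted p = 0.557). Of 26 matrix proteases and their inhibitors 13 lay on each side of 0, and 1, Anpep, was called, beside 0.018% of all genes. Mmp14, the membrane collagenase MT1-MMP, had 10.03, 10.15 and 10.09 in SIRT6 KD arrays, against 10.26, 10.37 and 10.29 in WT arrays (log2 fold change -0.22, limma adjusted p = 0.533). Plat, tissue plasminogen activator, had a log2 fold change of 0.26 and Adamts5, an aggrecanase, 0.19. Of 20 integrins and laminins 5 lay above 0 and 15 below (median -0.047, but -0.002 with 10 on each side without SIRT6 KD replicate 1), and Itga5, the fibronectin receptor subunit, had 9.98, 10.16 and 10.05 in SIRT6 KD arrays, against 10.38, 10.39 and 10.20 in WT arrays (log2 fold change -0.26, limma adjusted p = 0.514).

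Of 53 genes of oxidative phosphorylation 13 lay above 0 and 40 below (median -0.051), and of 39 cytosolic ribosomal proteins 7 above and 32 below (median -0.058), with 0 called in either. In the brightest 5th of all genes 61.9% lay below 0 with a median of -0.022, and in the dimmest 43.6% with a median of 0.022. Ndufb5, a subunit of complex I, had the smallest p of its list at a log2 fold change of -0.22 (limma adjusted p = 0.636), and Rps23, a ribosomal protein, -0.25 (limma adjusted p = 0.663). The SIRT6 KD arrays were unlike each other here. The median deviation of the oxidative phosphorylation genes was -0.073, 0.025 and -0.04 in the 3 SIRT6 KD arrays and 0.016, 0.036 and 0.043 in the 3 WT arrays, so SIRT6 KD replicate 2 lay among the WT arrays.

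Of 19 genes of cholesterol synthesis and uptake 10 lay above 0 and 9 below (median 0.004). Stard4, a carrier of cholesterol, had 7.87, 8.0 and 7.67 in SIRT6 KD arrays, against 8.21, 8.22 and 8.30 in WT arrays (log2 fold change -0.40, limma adjusted p = 0.203). The median of this list was 0.133 at 0 hr, with 16 of 19 genes above 0, and -0.142 at 40 hr, with 3 above. Of 24 genes of fatty acid and triglyceride synthesis 8 lay above 0 and 16 below (median -0.058, but -0.002 without SIRT6 KD replicate 1 and -0.137 without replicate 2), with Fasn, fatty acid synthase, at -0.23 and Acss2, a cytosolic acetyl-CoA synthetase, at 0.28. Of 26 genes of glycolysis and the hypoxia response 15 lay above 0 and 11 below (median 0.025). Hif1a, the hypoxia factor that SIRT6 is known to restrain, had 10.71, 10.53 and 10.60 in SIRT6 KD arrays, against 10.53, 10.39 and 10.40 in WT arrays (log2 fold change 0.17, limma adjusted p = 0.673), and its lowest SIRT6 KD array was level with the highest WT array.

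Among signalling lists, the TGF-β and BMP pathway had 8 genes above 0 and 23 below (median -0.079), and apoptosis genes 6 above and 17 below (median -0.079), with 0 called in either. Smad7, an inhibitor of TGF-β signalling, had 6.82, 6.77 and 6.85 in SIRT6 KD arrays, against 6.93, 7.23 and 7.08 in WT arrays (log2 fold change -0.26, limma adjusted p = 0.636). The Wnt pathway had 13 above and 20 below (median -0.041), and Axin2, a feedback target of Wnt, a log2 fold change of -0.28 (limma adjusted p = 0.56). Among growth factors, Vegfd, a lymphatic growth factor, had 9.55, 9.76 and 9.62 in SIRT6 KD arrays, against 9.37, 9.30 and 9.28 in WT arrays (log2 fold change 0.33, limma adjusted p = 0.227), and its difference at 40 hr was 0.40. Insulin and IGF signalling had 11 above and 15 below (median -0.015). Of 31 chromatin modifiers 12 lay above 0 and 19 below (median -0.034). Kdm1a, the histone demethylase LSD1, had 10.01, 9.97 and 9.89 in SIRT6 KD arrays, against 10.21, 10.09 and 10.29 in WT arrays (log2 fold change -0.24, limma adjusted p = 0.455). Hdac1, a histone deacetylase, had 10.68, 10.48 and 10.42 in SIRT6 KD arrays, against 10.83, 10.72 and 10.82 in WT arrays (log2 fold change -0.27, limma adjusted p = 0.617).

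The remaining lists gave no called gene. The unfolded protein response and ATF4 targets had 8 above 0 and 19 below (median -0.059), p53 targets 13 and 10 (0.013), NRF2 antioxidant genes 8 and 11 (-0.004), and PDGF, FGF and VEGF ligands and receptors 11 and 14 (-0.045). The circadian clock had 11 above and 7 below (0.042, but -0.005 without WT replicate 2), lysophospholipid genes 5 and 8 (-0.014), and sirtuins and NAD synthesis 9 and 8 (0.001). Sirt6 was the one sirtuin or NAD gene with an unadjusted p under 0.05.

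The fold changes at 0 hr and 40 hr come from other arrays than those at 20 hr. The 100 genes above the receptor level with the smallest p at 20 hr were followed there, 42 of them higher and 58 lower in SIRT6 KD cells at 20 hr. At 40 hr 89 of the 100 had the same sign, and in 63 the arrays were apart in the same direction, beside 62.5% and 15.6% of all 11767 genes above the receptor level. At 0 hr 81 had the same sign and 34 were apart in that direction, beside 54.6% and 7.7%. The p that chose these genes used the spread of all 18 arrays, so the choice was repeated from the 6 arrays at 20 hr alone, an alternative added after seeing the data. Of the 100 genes so chosen, 69 were the same, 86 had the same sign at 40 hr with 47 apart in that direction, and 83 at 0 hr with 30 apart. For the 100 genes of the fit to all arrays, the median difference in the 20 hr direction was 0.203 at 40 hr and 0.111 at 0 hr, where the median absolute difference at 20 hr, which chose the genes, was 0.351. Across the 11767 genes the fold changes at 20 hr and 40 hr had a Pearson correlation of 0.381, those at 20 hr and 0 hr one of 0.178, and those at 0 hr and 40 hr one of 0.005. These correlations are across genes, which are not independent replicates.

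**Figure D5:**
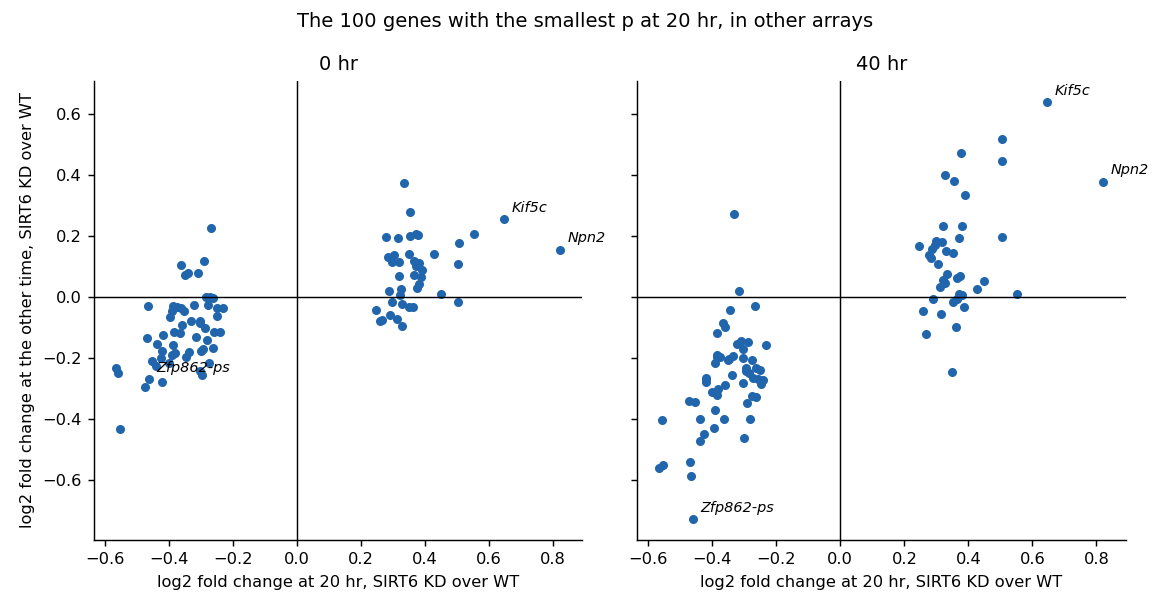
Log2 fold changes, SIRT6 KD over WT, of the 100 genes with the smallest p at 20 hr, with the value at 20 hr on the horizontal axis and the value at 0 hr (left) or 40 hr (right) on the vertical axis. Points at the lower left and upper right have the same sign at both times, 81 at 0 hr and 89 at 40 hr.

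All 4 called genes had their arrays apart in the same direction at 40 hr, and Anpep, Pskh1 and Zfp862-ps also at 0 hr. By limma, 20 genes were called at 40 hr, 0.0902% of 22180, among them Kif5c (adjusted p = 0.0154), Anpep (0.0156) and Zfp862-ps (0.000111), and not Pskh1 (0.0816). At 0 hr 0 genes were called by limma, with 1532 at an unadjusted p under 0.05 (6.91%). Acta2 and Anxa3 were not far apart at either other time, with log2 differences of 0.07 and 0.14 at 0 hr and 0.06 and 0.03 at 40 hr, beside 0.37 and 0.43 at 20 hr.

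Whether any difference belonged to 20 hr in particular was tested by the difference of effects. By limma 0 genes had an effect at 20 hr that differed from that at 0 hr (1081 at an unadjusted p under 0.05, 4.87%), and 0 an effect that differed from that at 40 hr (974, 4.39%). For Kif5c the effect at 20 hr exceeded that at 0 hr by 0.39 (limma adjusted p = 0.936) and that at 40 hr by 0.01 (limma adjusted p = 0.998). Pappa, a protease that frees IGFs from their binding proteins, had 10.13, 10.15 and 9.99 in SIRT6 KD arrays at 20 hr, against 10.39, 10.38 and 10.31 in WT arrays. Its log2 fold change was -0.27 at 20 hr and 0.23 at 0 hr, a difference of -0.50 with a limma adjusted p of 0.795.

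The 100 genes were also set against the change that WT cells made from 0 hr to 40 hr, whose fold changes come from other arrays. Of the 42 higher in SIRT6 KD cells, 29 stood lower in WT cells at 40 hr than at 0 hr, and 20 of them were called lower there by limma (47.6% of the 42, beside 15.1% of all genes above the receptor level). Of the 58 lower in SIRT6 KD cells, 44 stood higher in WT cells at 40 hr, 21 of them called higher (36.2%, beside 21.4%). Kif5c, Cryab, Acta2, Anxa3 and Vegfd are among the 20, and Cluh, Mpi and Mfsd10 among the 21. In the other direction, 6 of the 42 were called higher in WT cells at 40 hr and 7 of the 58 lower. Chosen from the 6 arrays at 20 hr alone, 44 genes were higher and 56 lower in SIRT6 KD cells, and 15 of the 44 were called lower in WT cells at 40 hr (34.1%) and 21 of the 56 higher (37.5%). The calls of this WT change still use the spread of all 18 arrays.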

How the data were processed

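RNA of 18 samples was hybridised to 1-colour Affymetrix Mouse Gene 2.0 ST arrays. The deposited values are log2 signals that the authors made by RMA, which corrects background, normalises between arrays and summarises probes, so differences that quantile normalisation removes are not seen here. The software version is not given in the sources used here. Of 41345 rows, 16004 have no gene symbol and 1820 several, and 23521 with 1 symbol were tested. A gene is its row with the highest mean over the 18 arrays.

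A 6-group linear model was fitted to all arrays in limma 3.58.1 (R 4.3.3), with Benjamini-Hochberg adjustment, after the fit had been tested on simulated data. For named genes an exact 2-sided permutation test was run beside limma, and its p is given for Sirt6 only. That test cannot go below 0.1 with 3 arrays against 3. The number of arrays limits the precision. Named genes were the called genes and the 12 highest and 12 lowest. The highest and lowest were taken at an unadjusted p under 0.01, above the receptor level and with arrays apart. Further named genes were up to 4 with the smallest p in each list and 10 in each difference between times. Sirt6, the proteins the study followed and several of the genes it singled out were also named. Ptprc was named as a marker. Members and lists were chosen with earlier results of these data known. Alternatives covered the variance estimate, the rows, the scaling, array weights, the samples fitted, a replicate block and leaving out each array.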

Additional observations from a re-analysis of the deposited data

Results flagged for a closer look

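Rows without a gene symbol, which no comparison above uses, passed the study's fold rule more often at 20 hr than rows with 1 symbol. Of 16004 such rows, 191 were higher and 48 lower in SIRT6 KD than in WT arrays at 20 hr by a fold above 1.5 with an unadjusted p under 0.05. At 0 hr the counts were 158 higher and 53 lower, and at 40 hr 122 higher and 117 lower. Of the 23521 rows with 1 symbol, 11 were higher (0.0468%) and 4 lower (0.017%) at 20 hr by the same rule. The rule uses an unadjusted p. With all rows of the table tested, 1 row was called by limma at 20 hr.

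Several genes had their arrays apart in opposite directions at 20 hr and at another time. Values are the log2 effect, SIRT6 KD minus WT, at 20 hr less that at the other time. Against 0 hr the difference was 0.65 for Cnn1 (calponin), 0.52 for Ces2f, 0.49 for 4930513O06Rik and 0.49 for Gm11213. It was -0.57 for Actr6, -0.50 for Pappa, -0.35 for Sqle (squalene epoxidase) and -0.29 for Itga6 (an integrin subunit). Against 40 hr it was 0.55 for Poglut3, -0.43 for Chrna7, -0.53 for Cmtm8, -0.61 for Zfp937, -0.86 for Gm5166 and -1.25 for Vmn1r80. The limma adjusted p of these differences ran between 0.786 and 0.936, so none passed the test. In total 102 genes were apart in opposite directions and 249 in the same direction against 0 hr. Against 40 hr there were 93 opposite and 512 the same. Of all 22180 genes, 2587 had their arrays apart in either direction at 20 hr, 2751 at 0 hr and 3541 at 40 hr. With so many genes apart at each time, some fall in opposite directions by chance. Whether 102 or 93 exceeds that number was not tested, so these genes are listed without a claim that they do.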

How the results depend on the processing

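The 5 rows called became 12 with trended, robust variances, 12 with only rows above the receptor level tested, 8 with cyclic loess, 8 with array weights and 8 at an adjusted p under 0.1. Without moderation there were 7, which kept Anpep, Pskh1 and Zfp862-ps, added Man2a1 and Samhd1 and lost Kif5c. They became 1 over all rows of the table (a row with no symbol, log2 fold change -0.65, limma adjusted p = 0.00715), 1 from the 12 arrays after induction (Kif5c), 0 with arrays centred on their medians and 0 from the 6 arrays at 20 hr alone. With the replicate block the count was 0, and with the replicate block within time 0. Same-numbered arrays correlated at 0.157, 0.07 and 0.004 at 20 hr, so the numbers were not taken as pairs. Leaving out 1 array gave 0 to 3 calls, with 3 only without SIRT6 KD replicate 2. The 15 rows past the fold rule became 5 above the receptor level and 254 over all rows, and 14 to 40 without 1 array. The cause of these shifts was not tested. The differences between times gave 0 calls by limma under every alternative run. Of the 100 genes, chosen anew under each alternative (added after seeing the data), 85 to 92 kept the sign at 40 hr and 71 to 85 at 0 hr. Chosen from the 6 arrays at 20 hr alone, 86 and 83 did. No called value changed direction.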
